A study of Homo sapiens with 12 samples.

Results

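The genes studied here encode the translation initiation factors, together with the enzymes and partner proteins that share their gene names, in SZ95 sebocytes, an immortalised cell line from human sebaceous gland. RNA was sequenced from 12 libraries in 4 groups of 3, which the design text calls biological replicates. The groups were LA+RVT, set against LA, and PGN+RVT, set against PGN. RVT is resveratrol, the plant polyphenol in the study's title. The labels leave LA and PGN as abbreviations, place the LA libraries in a table named for lipid and the PGN libraries in one named for inflammation, and state neither dose nor time. Every library carried a stimulus, so no untreated level stands beside the values, and all 4 groups come from 1 cell line.

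Members were all genes whose symbol is EIF, a digit from 1 to 6 and further letters or digits, without pseudogenes. They numbered 53, of 60671 genes in the LA table and 60666 genes in the PGN table. The symbol pattern alone matched 129 and 133 genes, of which 73 and 77 were described as pseudogenes. Another 3, EIF4EBP1, EIF4EBP2 and EIF4EBP3, were removed because their names end in P and a number, although they are genes for 4E-binding proteins; they are described as neighbours of the members. A gene was tested where it averaged at least 1 TPM (a level that is scaled to transcript length and to the library's total) over the libraries of the comparison. This kept 49 members for LA+RVT against LA and 48 for PGN+RVT against PGN. EIF4E1B, EIF2S3B, EIF5AL1 and EIF1AY were under that level in both tables, and EIF4E3 was under it in the PGN table.

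Translation of most messenger RNAs begins when eIF4E binds the cap, the scaffold eIF4G and the helicase eIF4A join it as the eIF4F complex, and a small ribosomal subunit carrying eIF1, eIF1A, eIF3 and eIF5 is recruited. That subunit also carries the initiator methionine tRNA, delivered by eIF2 with GTP, and eIF2B recharges eIF2 after each round. Stress-activated kinases phosphorylate the alpha subunit of eIF2 and slow this cycle, whereas mTOR releases eIF4E from the 4E-binding proteins; both are known points at which cells set their rate of protein synthesis. The sebaceous gland is a lipid-secreting tissue, and its cells make large amounts of membrane and enzyme before they burst.

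As levels, the initiation factor genes were abundant in every library. EIF4A1, the eIF4A helicase, had the highest level of all members in each group, at 1023, 1047 and 1051 TPM with LA+RVT and 883, 929 and 931 TPM with LA. In the other arm it stood at 1253, 1264 and 1303 TPM with PGN+RVT and at 1400, 1433 and 1406 TPM with PGN. EIF5A, a factor named for initiation and now known mainly for elongation, came second in each group, and its level was 775 ± 7.64 TPM with LA+RVT, 726 ± 21.0 TPM with LA, 1091 ± 25.4 TPM with PGN+RVT and 1264 ± 57.0 TPM with PGN (SD, n = 3 each). On GRCh38, EIF4A1 lies on chromosome 17 from 7572706 to 7579005 and EIF5A on the same chromosome from 7306999 to 7312463, both on the plus strand. Members at 100 TPM or more numbered 28 with LA+RVT, 26 with LA, 29 with PGN+RVT and 30 with PGN. The least expressed tested member was EIF4E3, a cap-binding relative of eIF4E, at 1.18 ± 0.284 TPM with LA+RVT and 1.42 ± 0.0981 TPM with LA. The 2 tables were made with different annotations and were tested separately, so differences in level between the LA and PGN arms are not read as results.

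As a sum over all members, the levels stood at 9436, 9479 and 9569 TPM with LA+RVT, against 8688, 8870 and 8872 TPM with LA. The LA+RVT libraries all lay above the LA libraries. In the PGN arm the sum was 10520, 10453 and 10577 TPM with PGN+RVT, against 11062, 11176 and 11056 TPM with PGN, and here the libraries with RVT all lay below. As a share of each library's total, the members took 0.953% ± 0.00661 with LA+RVT and 0.884% ± 0.0104 with LA, and 1.06% ± 0.00589 with PGN+RVT and 1.12% ± 0.00737 with PGN (SD, n = 3 each). The eIF3 sum was 3578 ± 45.3 TPM with LA+RVT and 3399 ± 39.3 TPM with LA, and 3854 ± 21.3 TPM with PGN+RVT and 3983 ± 5.34 TPM with PGN. The summed eIF4F core of EIF4E, EIF4G1 and EIF4A1 was 1540 ± 12.4 TPM with LA+RVT and 1327 ± 33.9 TPM with LA.

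**Figure D1:**
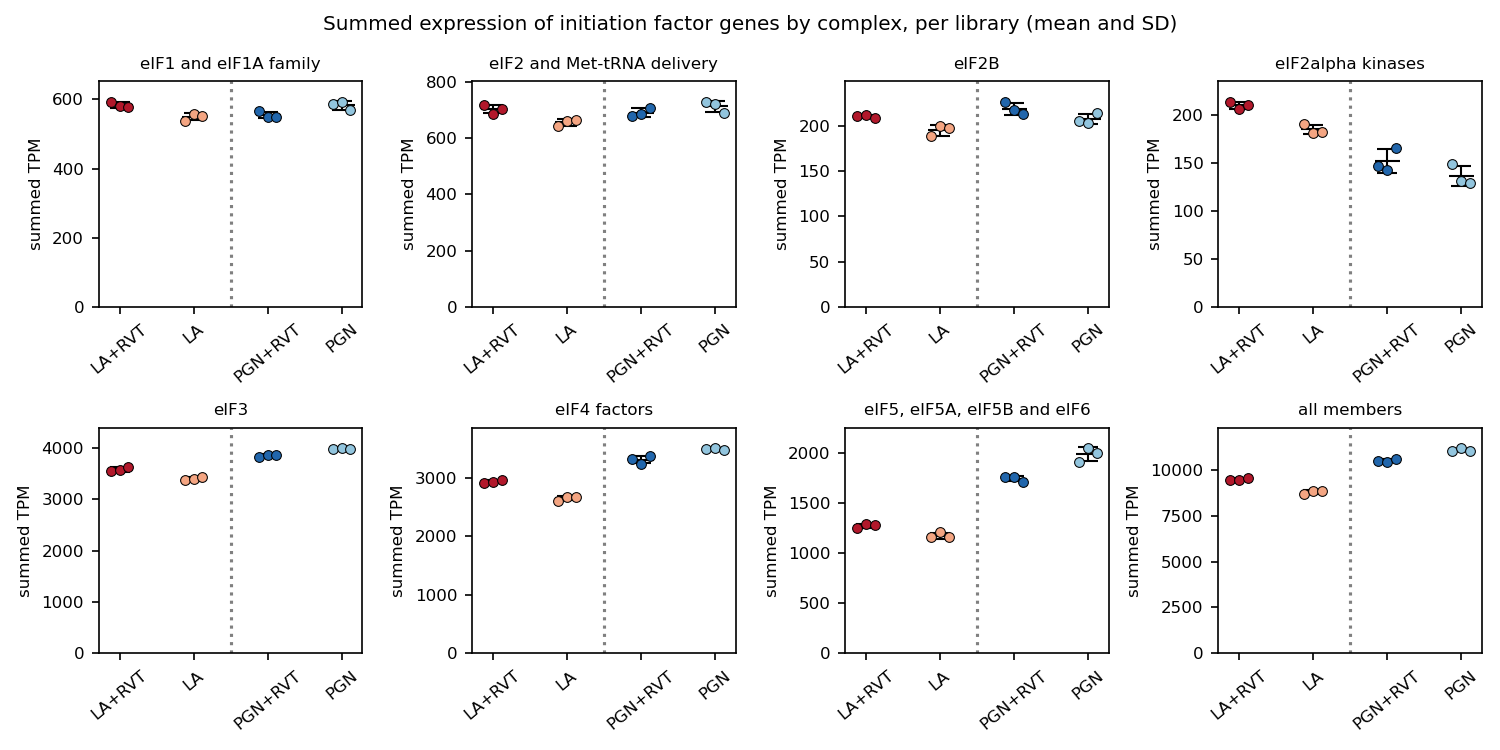
Summed TPM of the members of each complex, 1 point per library, with the group mean and SD (n = 3). The sum over all members lies between 9436 and 9569 TPM in the LA+RVT libraries and between 8688 and 8872 TPM in the LA libraries, whereas the PGN+RVT libraries lie below the PGN libraries.

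Library totals ran from 994373 to 997060 TPM, between 14489 and 15452 genes reached 1 TPM, and replicates correlated at 0.974 to 0.983. Of 14 markers fixed for sebocytes, 10 reached 1 TPM in every group, and among those that did not, AWAT2 and MC5R were at 0. The summed sebocyte list ran from 5873 to 5936 TPM with LA+RVT and from 4885 to 5003 TPM with LA, and from 7561 to 7674 TPM with PGN+RVT and from 7298 to 7425 TPM with PGN. Most of it was KRT7, KRT8 and KRT18, and the other 11 genes together ran from 341 to 360.1 TPM with LA+RVT and from 361 to 393 TPM with LA, and from 365 to 409.7 TPM with PGN+RVT and from 299.8 to 329 TPM with PGN. Single markers of the sebocyte list went both ways. Under LA, MUC1 fell (log2 fold change -0.54, adjusted p = 0.0242). KRT18 (0.31, adjusted p = 3.74e-04), KRT8 (0.25, adjusted p = 4.88e-04) and KRT7 (0.29, adjusted p = 8.05e-04) rose there. Under PGN, PPARG (-0.72, adjusted p = 4.73e-04) and PRDM1 (-0.85, adjusted p = 0.00373) fell, whereas FADS2 (1.07, adjusted p = 4.99e-04) and SCD (0.46, adjusted p = 0.00561) rose. Of 5 keratinocyte markers 4 reached 1 TPM, and their sum ran from 188 to 197 TPM with LA+RVT and from 222 to 233 TPM with LA, and from 405 to 410.5 TPM with PGN+RVT and from 497 to 515 TPM with PGN. Most of that sum was KRT5, which fell under LA (-0.37, adjusted p = 6.69e-04) and under PGN (-0.30, adjusted p = 0.00206). IVL, KRT10 and KRT14 were at 0.14, 0.34 and 0.24 under LA, none called. Under PGN they were at -0.62, -0.25 and 0.28, and only IVL was called (adjusted p = 0.00291). In the fibroblast, melanocyte, immune and endothelial lists 1 marker each reached 1 TPM, and each list summed to at most 26.5 TPM. The endothelial sum ran from 7.22 to 8.10 TPM with LA+RVT and from 17.5 to 17.9 TPM with LA, and from 23.4 to 24.1 TPM with PGN+RVT and from 24.8 to 26.5 TPM with PGN. Most of the endothelial sum was CDH5, which fell under LA (-1.22, adjusted p = 3.28e-04) and was not called under PGN (-0.11, adjusted p = 0.262). The sebocyte, keratinocyte and endothelial sums did not overlap between libraries with and without RVT in either arm, and their part in the results below was not tested. In bulk RNA, fewer cells of a type and less RNA per cell cannot be told apart.

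In LA+RVT against LA, initiation factor genes were higher with RVT across most complexes: 18 of the 49 tested members rose and 1 fell. Among all 15409 genes tested, 15.7% were called in either direction, 10.7% higher and 5.07% lower. A call here is an adjusted p under 0.05 from limma on log2(TPM + 1), with Benjamini-Hochberg adjustment over all genes tested. The members' median log2 fold change was 0.12, against 0.036 over all genes, and 38 of the 49 were above 0. With 1 exception, EIF4ENIF1, the called rises were small, between 0.094 and 0.35 on the log2 scale. Because TPM are shares, the split depends on the scaling: 1645 genes rose and 781 fell as deposited, 1041 rose and 1080 fell with library medians equalised, and 1013 rose and 971 fell with ribosomal protein and mitochondrial genes left out of the total. Under both of these rescalings 12 members rose and 4 fell.

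All 3 core genes of eIF4F rose with RVT under LA. EIF4G1, which encodes the scaffold that holds the cap-binding protein and the helicase together (chromosome 3, 184314495 to 184335358, plus strand, GRCh38), had 391, 392 and 392 TPM with LA+RVT, against 327, 328 and 327 TPM with LA. The LA+RVT libraries lay above the LA libraries by far more than the replicates differed, and the log2 fold change was 0.26 ± 0.019 (SE, adjusted p = 5.94e-04), a 1.20-fold ratio of means. The EIF4A1 levels given above likewise did not overlap between LA+RVT and LA, with a log2 fold change of 0.19 ± 0.026 (adjusted p = 0.00531). EIF4E, the cap-binding protein itself, had 113, 100.3 and 109 TPM with LA+RVT, against 78.4, 88.2 and 91.1 TPM with LA. These groups did not overlap either, but the replicates were wider spread, and the log2 fold change was 0.32 ± 0.068 (adjusted p = 0.0237).

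EIF4E holds the letters CACGTG more than once in the 250 bases before its RefSeq start (GRCh38.p14). EIF4G1 does so before only 1 of its 3 RefSeq starts, and that window is the one shown. CACGTG is the E-box bound by MYC, MITF and their relatives, and it reads the same on both strands. The stretches are printed because EIF4E and EIF4G1 are the cap-binding and scaffold members of eIF4F that rose with RVT under LA, with the motif in capitals. EIF4A1, the remaining core gene of eIF4F, also rose and holds no CACGTG in its window of 300 bases. EIF4E lies on the minus strand at chr4:98929134-98929383 and EIF4G1 on the plus strand at chr3:184314356-184314605.
EIF4E: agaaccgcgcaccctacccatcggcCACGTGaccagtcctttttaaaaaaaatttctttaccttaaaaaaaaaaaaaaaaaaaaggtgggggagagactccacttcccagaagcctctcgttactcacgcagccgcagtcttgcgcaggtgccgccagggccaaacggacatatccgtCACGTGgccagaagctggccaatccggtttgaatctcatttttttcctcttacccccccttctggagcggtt
EIF4G1: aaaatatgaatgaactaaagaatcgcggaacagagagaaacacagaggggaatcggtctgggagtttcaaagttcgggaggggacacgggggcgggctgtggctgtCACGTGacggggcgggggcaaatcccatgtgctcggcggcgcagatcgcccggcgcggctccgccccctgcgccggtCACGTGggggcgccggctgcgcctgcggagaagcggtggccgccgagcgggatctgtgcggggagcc
Counted back from the start, the motifs begin 225 and 72 bases away in EIF4E and 144 and 67 bases away in EIF4G1. A gene can have several windows, and a copy in any window of 300 bases was found for 8.77% of all 27305 gene symbols, with at least 2 copies in a window for 0.791%. Of the 45 members with a window, 11 held it, and EIF5A2 was the other member with 2 copies. In LA+RVT against LA, 4 of the 11 members with CACGTG rose and none fell (median log2 fold change 0.18), beside 10 of 30 tested members without it (median 0.11). EIF3L, the member that fell, and EIF2S2, EIF3A, EIF3CL and EIF3H, which rose, had no window and are in neither class. Among the other tested genes 190 of 1312 with CACGTG rose and 54 fell (median 0.060), beside 1085 higher and 495 lower of 9233 without it (median 0.040). A match is a string of letters in this window and says nothing of whether a factor binds there.

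Other members of the eIF4 group split. EIF4ENIF1 encodes the transporter that carries eIF4E into the nucleus and to P-bodies, and it showed the largest fold change of the called members. Its level was 31.3, 23.4 and 32.9 TPM with LA+RVT, against 16.3, 18.5 and 16.5 TPM with LA, so that the groups stood apart while LA+RVT replicate 2 sat well below its 2 fellows. The log2 fold change was 0.73 ± 0.13 (adjusted p = 0.0125), a 1.71-fold ratio of means. EIF4A3, a relative of the eIF4A helicase that works in the exon junction complex rather than in initiation, had 191, 196 and 198 TPM with LA+RVT, against 162, 161 and 142 TPM with LA (log2 fold change 0.33 ± 0.053, adjusted p = 0.00869). The third paralogue, EIF4A2, stood at 185 ± 2.01 TPM with LA+RVT and 193 ± 3.06 TPM with LA and was not called (adjusted p = 0.172). EIF4B and EIF4H, cofactors of the helicase, and the scaffold relatives EIF4G2 and EIF4G3 were not called either. In all, 5 of 12 tested eIF4 genes rose and none fell with the values as deposited.

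**Figure D2:**
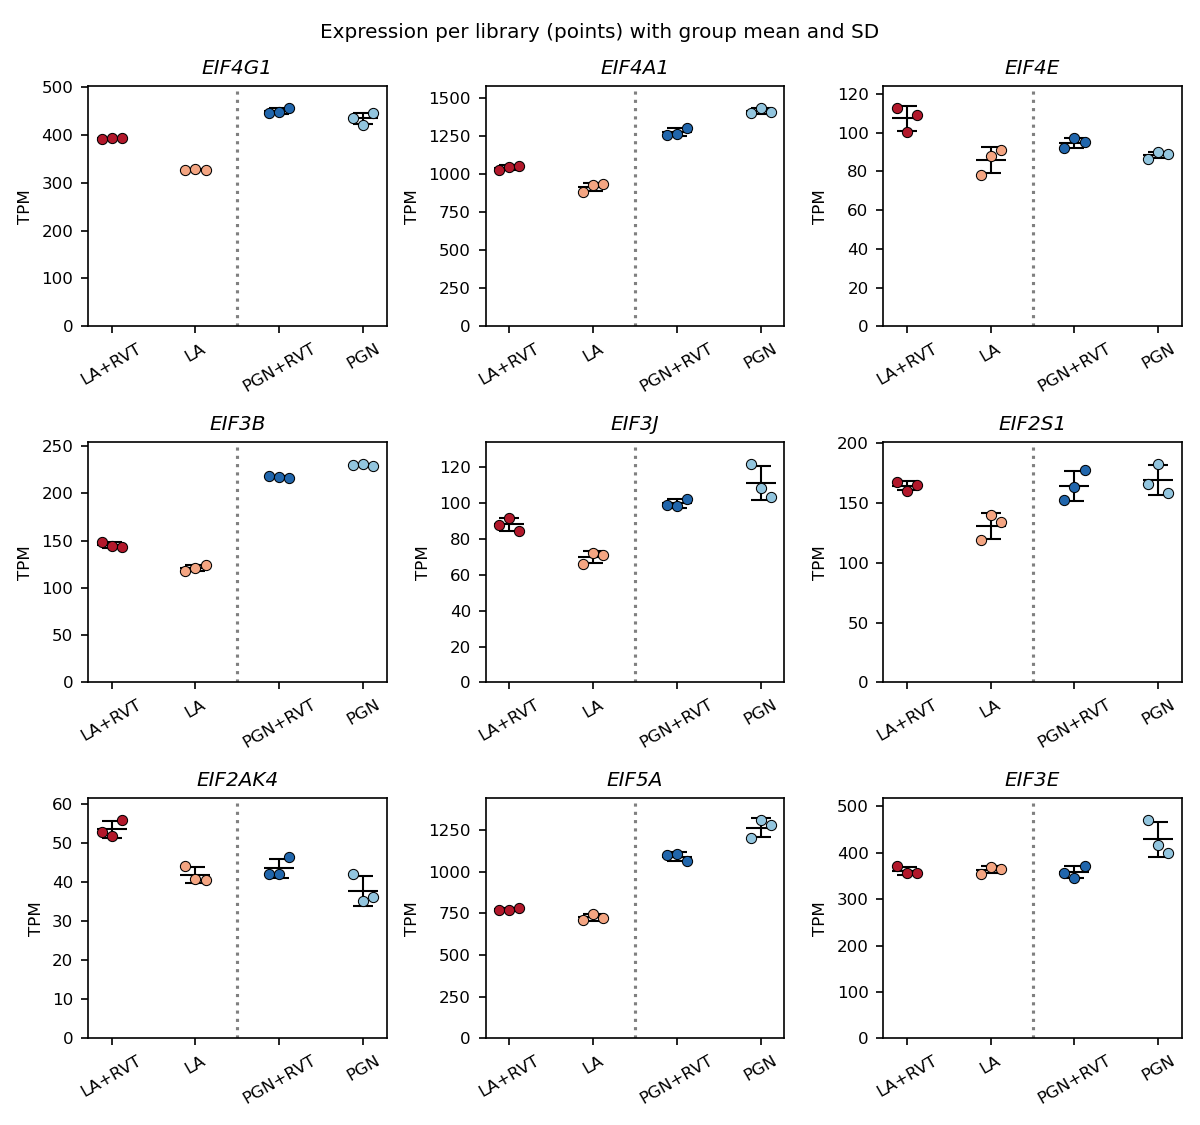
TPM of 9 members in each library (points) with the group mean and SD (n = 3), in the order LA+RVT, LA, PGN+RVT and PGN, each axis starting at 0. EIF4G1 sits at 391 to 392 TPM in the LA+RVT libraries and at 327 to 328 TPM in the LA libraries, and EIF4A1 and EIF5A are higher in the LA+RVT libraries than in the LA libraries and lower in the PGN+RVT libraries than in the PGN libraries.

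In eIF3, the largest initiation complex, 6 of 14 tested subunit genes rose and 1 fell. EIF3B, a core scaffold subunit with an RNA-binding domain, had 148, 144 and 143 TPM with LA+RVT, against 118, 121 and 124 TPM with LA, with no overlap (log2 fold change 0.26 ± 0.032, adjusted p = 0.00318). EIF3J, the loosely bound subunit that sits near the mRNA entry channel, had 87.8, 91.5 and 84.5 TPM with LA+RVT, against 66.1, 72.1 and 71.0 TPM with LA. Its 2 groups lay far apart, and the log2 fold change was 0.33 ± 0.048 (adjusted p = 0.00604). EIF3A, the largest subunit and partner of EIF3B, had 205, 200.3 and 199 TPM with LA+RVT, against 181, 177 and 179 TPM with LA (log2 fold change 0.17 ± 0.026, adjusted p = 0.00748). EIF3M, a subunit of the octameric core, had 208, 209 and 211 TPM with LA+RVT, against 183, 176 and 192 TPM with LA (0.19 ± 0.035, adjusted p = 0.0147). The rise of EIF3H, another core subunit, was smaller, at 362 ± 3.54 TPM with LA+RVT and 335 ± 6.90 TPM with LA (0.11 ± 0.024, adjusted p = 0.0264).

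EIF3L was the single member that fell in the LA arm. Its product belongs to the same octamer as those of EIF3M and EIF3H, and its level was 309, 318 and 305 TPM with LA+RVT, against 339, 332 and 335 TPM with LA, every RVT library below every LA library. The log2 fold change was -0.11 ± 0.024 (adjusted p = 0.0264). EIF3C and EIF3CL are near-identical copies on chromosome 16, so the division of reads between them is uncertain. EIF3CL alone was called (151 ± 5.25 TPM with LA+RVT and 131 ± 6.09 TPM with LA, adjusted p = 0.0245), EIF3C was not (388 ± 25.2 TPM with LA+RVT and 364 ± 3.85 TPM with LA, adjusted p = 0.245), and their sum was 539 ± 20.1 TPM with LA+RVT and 496 ± 3.47 TPM with LA. The other subunit genes not called, EIF3D, EIF3E, EIF3F, EIF3G, EIF3I and EIF3K, had log2 fold changes from -0.029 to 0.098.

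In eIF2, 2 of the 3 subunit genes rose. EIF2S1, the alpha subunit whose phosphorylation slows initiation, had 168, 160.4 and 165 TPM with LA+RVT, against 119, 140.0 and 134 TPM with LA. The groups did not overlap, and the log2 fold change was 0.33 ± 0.061 (adjusted p = 0.0146). EIF2S2, the beta subunit, had 236, 232 and 232 TPM with LA+RVT, against 213, 218 and 216 TPM with LA (log2 fold change 0.12 ± 0.023, adjusted p = 0.0199). EIF2S3, the GTP-binding gamma subunit, stood at 181 ± 4.04 TPM with LA+RVT and 190 ± 3.50 TPM with LA and was not called (adjusted p = 0.162). None of the 5 genes of eIF2B, the exchange factor, was called, with log2 fold changes from -0.0055 to 0.19.

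Of the 4 kinases that phosphorylate eIF2 alpha, 2 were higher with RVT under LA. EIF2AK4 (GCN2, the sensor of uncharged tRNA) had 52.9, 52.0 and 56.0 TPM with LA+RVT, against 44.3, 40.9 and 40.5 TPM with LA, a log2 fold change of 0.35 ± 0.052 (adjusted p = 0.00670). EIF2AK2 (PKR, the sensor of double-stranded RNA) had 43.0, 46.3 and 42.1 TPM with LA+RVT, against 39.0, 38.3 and 37.4 TPM with LA (log2 fold change 0.19 ± 0.049, adjusted p = 0.0413). Neither pair of groups overlapped. EIF2AK1 (HRI, the heme-regulated kinase) was at 101 ± 4.55 TPM with LA+RVT and 93.0 ± 1.83 TPM with LA (adjusted p = 0.0993). EIF2AK3 (PERK, the kinase of the endoplasmic reticulum) was at 11.8 ± 0.370 TPM with LA+RVT and 12.2 ± 0.769 TPM with LA (adjusted p = 0.737).

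Among the remaining factors, EIF1AX, which helps the small subunit scan for the start codon, had 77.9, 68.3 and 65.9 TPM with LA+RVT, against 57.8, 53.4 and 58.0 TPM with LA (log2 fold change 0.32 ± 0.070, adjusted p = 0.0256). EIF5B, the GTPase that joins the ribosomal subunits, had 61.7, 60.7 and 59.7 TPM with LA+RVT, against 55.1, 54.4 and 54.1 TPM with LA (0.15 ± 0.034, adjusted p = 0.0278). EIF5A was called by a narrow margin (0.094 ± 0.025, adjusted p = 0.0499). In each of these 3 genes the RVT libraries lay above all LA libraries. EIF1, the most abundant of its family and a guard of start-codon choice, was at 433 ± 5.32 TPM with LA+RVT and 416 ± 9.15 TPM with LA and was not called (adjusted p = 0.164). EIF6, which keeps the ribosomal subunits apart until they are mature, was at 331 ± 10.9 TPM with LA+RVT and 302 ± 14.1 TPM with LA (adjusted p = 0.0725).

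The firmness of these calls differed. The 9 calls of EIF4G1, EIF3B, EIF4A1, EIF3J, EIF2AK4, EIF3A, EIF4A3, EIF4ENIF1 and EIF2S1 held under all 13 other ways of processing that were tried, which include each of the 6 libraries left out. The EIF3M call was lost only without LA replicate 1 (adjusted p = 0.0505). Those of EIF2AK2, EIF3H and EIF5B were lost with any 1 of the 6 libraries left out, with adjusted p up to 0.123, 0.0805 and 0.0894. The EIF5A call was lost without any of them but LA replicate 2 (0.0975 to 0.136), and that of EIF3L without any but LA+RVT replicate 2 (0.0645 to 0.0800). EIF2S2 lost its call without any but LA+RVT replicate 3 (0.0502 to 0.0646). EIF1AX lost it without LA replicates 1, 2 or 3 or LA+RVT replicate 2 (0.0564 to 0.0807). EIF4E lost it without LA replicates 1 or 2 or LA+RVT replicates 1 or 3 (0.0504 to 0.0704), and EIF3CL without replicates 1 or 2 of either group (0.0697 to 0.0787). The largest adjusted p over the alternatives, including both rescalings, was 0.328 for EIF5A, 0.199 for EIF2AK2, 0.186 for EIF3H, 0.122 for EIF2S2 and 0.107 for EIF5B.

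**Figure D3:**
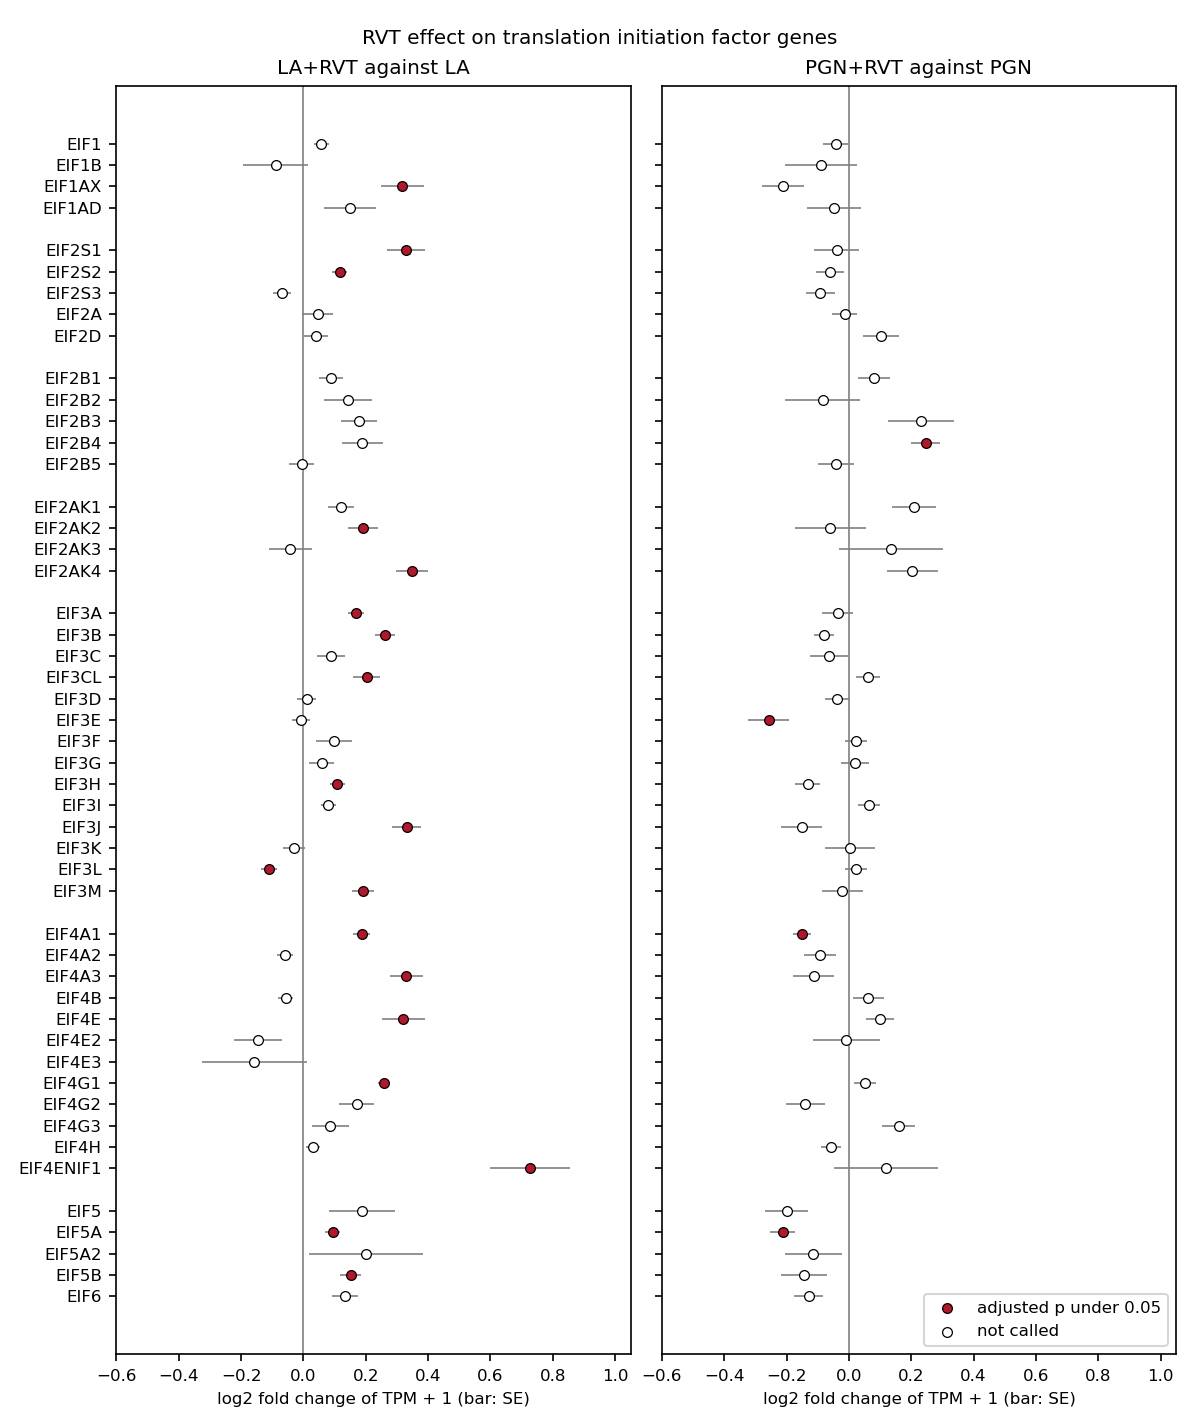
Log2 fold change of TPM + 1 for each tested member in LA+RVT against LA (left) and PGN+RVT against PGN (right), grouped by complex, with bars of 1 SE and filled points for adjusted p under 0.05. In the LA arm 18 points are called to the right of 0 and 1 to the left, and in the PGN arm 1 is called to the right and 3 to the left.

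Under PGN the picture was different. Of the 48 members tested in PGN+RVT against PGN, 1 rose and 3 fell, whereas 15.6% of all 14622 tested genes were called, 10.6% higher and 4.92% lower. The share of members called, 8.33%, lay below that background in this scaling but not in each one tried: it was 16.7% against 12.8% of all genes with library medians equalised, and 14.6% against 12.7% without PGN replicate 1. Their median log2 fold change was -0.040, against 0.064 over all genes, and 18 of the 48 were above 0. With library medians equalised, no member rose and 8 fell, while over all genes 850 rose and 1020 fell, in place of 1557 and 720.

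EIF5A fell with RVT under PGN, with 1103, 1108 and 1062 TPM with PGN+RVT, against 1201, 1311 and 1281 TPM with PGN. The groups did not overlap, and the log2 fold change was -0.21 ± 0.041 (adjusted p = 0.0150), a ratio of means of 0.863. The EIF4A1 helicase, whose levels are given above, was also lower in every PGN+RVT library than in any PGN library, at -0.15 ± 0.029 (adjusted p = 0.0158). EIF3E, an eIF3 subunit that also contacts the eIF4G scaffold, had 357, 346 and 371 TPM with PGN+RVT, against 471, 417 and 399.6 TPM with PGN. The PGN libraries were all higher but widely spread, with replicate 1 on top, and the log2 fold change was -0.26 ± 0.065 (adjusted p = 0.0370). EIF2B4, the delta subunit of the eIF2B exchange factor, was the one member that rose, with 48.6, 47.3 and 46.7 TPM with PGN+RVT, against 40.2, 39.7 and 39.8 TPM with PGN (0.25 ± 0.047, adjusted p = 0.0149).

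Each of these 4 calls was lost in some fits with a library left out. All 4 were lost without PGN replicate 2 and without PGN+RVT replicate 1. Without PGN+RVT replicate 2, EIF2B4, EIF4A1 and EIF3E were also lost, and without PGN+RVT replicate 3 EIF5A and EIF3E were. The adjusted p in the fits that lost the call ran from 0.0521 to 0.0726 for EIF2B4, 0.0520 to 0.0591 for EIF5A, 0.0585 to 0.0761 for EIF4A1 and 0.0715 to 0.114 for EIF3E. Of the 18 members that rose in the LA arm, 13 had a log2 fold change below 0 under PGN and 5 above 0, from -0.21 to 0.20. Over all 48 members tested under PGN, 18 were above 0, so most lay below it. Of the members that rose in the LA arm, EIF4A1 and EIF5A were called under PGN. Among those not called, the log2 fold change of EIF3H was -0.13 (adjusted p = 0.0703), that of EIF4A3 -0.11 (0.286), of EIF5B -0.14 (0.233), of EIF3B -0.079 (0.156) and of EIF3A -0.036 (0.669). EIF4G1 was at 449 ± 5.82 TPM with PGN+RVT and 433 ± 12.3 TPM with PGN (log2 fold change 0.052, adjusted p = 0.366). EIF4E was at 94.9 ± 2.61 TPM with PGN+RVT and 88.5 ± 1.65 TPM with PGN (0.10, adjusted p = 0.172), and EIF2S1 at 165 ± 12.6 TPM with PGN+RVT and 169 ± 12.4 TPM with PGN (-0.040, adjusted p = 0.757). The kinase EIF2AK4 was at 43.6 ± 2.43 TPM with PGN+RVT and 37.8 ± 3.73 TPM with PGN (0.20, adjusted p = 0.140). EIF3J was at 99.6 ± 2.36 TPM with PGN+RVT and 111 ± 9.57 TPM with PGN (-0.15, adjusted p = 0.170), and EIF1AX at 76.9 ± 2.48 TPM with PGN+RVT and 89.4 ± 7.48 TPM with PGN (-0.21, adjusted p = 0.0749).

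Whether the RVT effect itself differed between the stimuli was tested as the effect under PGN minus the effect under LA, over all 12 libraries. It was lower under PGN in 15 of the 48 tested members and higher in 1, whereas 14.8% of all 15177 tested genes were called, 7.03% lower and 7.73% higher. The members' median difference was -0.15 log2 units, against 0.026 over all genes. For EIF4A1 the log2 effect was -0.15 ± 0.029 under PGN and 0.19 ± 0.026 under LA, a difference of -0.34 ± 0.037 (adjusted p = 1.82e-04). For EIF3B it was -0.079 ± 0.033 under PGN and 0.26 ± 0.032 under LA, a difference of -0.34 ± 0.041 (adjusted p = 3.07e-04). The EIF1AX effect was -0.21 ± 0.067 under PGN and 0.32 ± 0.070 under LA, and its difference of -0.53 ± 0.10 was the largest among the called members (adjusted p = 0.00516).

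By complex, the called differences below 0 took in 5 of 14 eIF3 genes (EIF3A, EIF3B, EIF3E, EIF3H and EIF3J), 4 of 11 eIF4 genes (EIF4A1, EIF4A3, EIF4G1 and EIF4G2) and 3 of 5 genes of the late factors (EIF5A, EIF5B and EIF6). EIF2S1, EIF2S2 and EIF1AX made up the rest, and EIF3L had the one called difference above 0. No gene of eIF2B and none of the 4 kinases was called: the EIF2AK4 effect was 0.20 ± 0.081 under PGN and 0.35 ± 0.052 under LA, a difference of -0.14 with a 95% interval from -0.36 to 0.07. EIF4ENIF1 had a difference of -0.61 ± 0.23, which did not pass (adjusted p = 0.109). That of EIF4E was -0.22 ± 0.083 (adjusted p = 0.103), although its effect was called under LA alone. Of the 16 called differences, 9 held in all 18 other fits that were tried: EIF1AX, EIF3B, EIF3H, EIF3J, EIF4A1, EIF4A3, EIF4G1, EIF5A and EIF6. The others, EIF2S1, EIF2S2, EIF3A, EIF3E, EIF3L, EIF4G2 and EIF5B, were each lost with any 1 of 5 to 10 libraries left out, with adjusted p of at most 0.101.

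**Figure D4:**
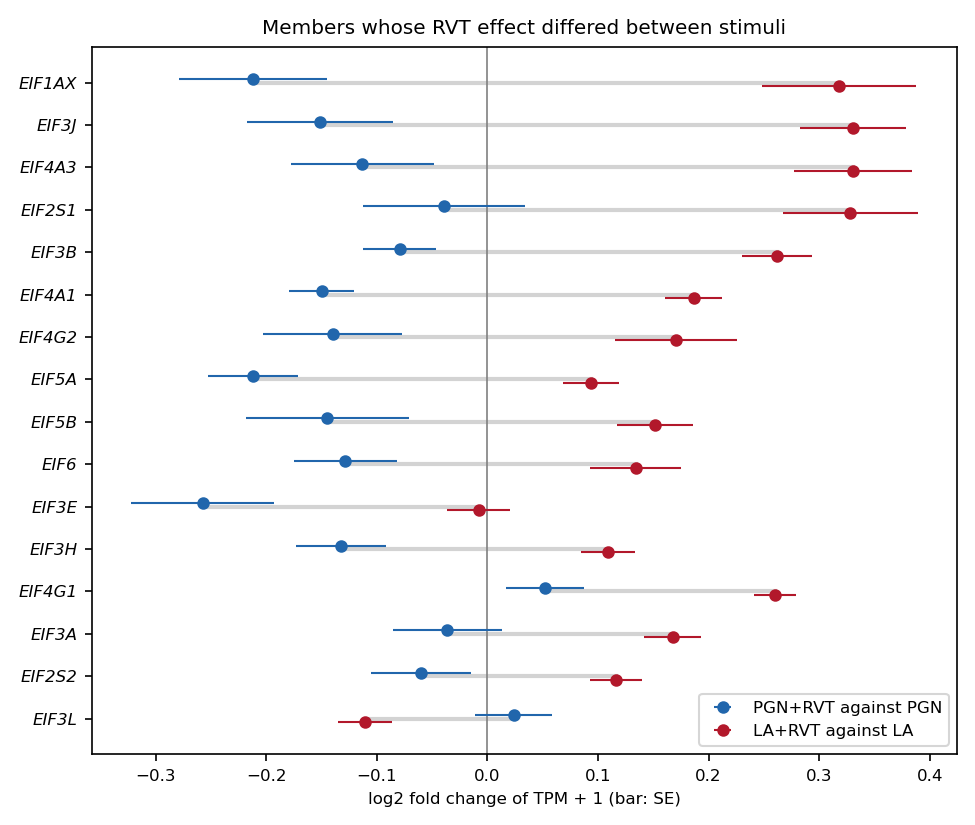
RVT effect (log2 fold change of TPM + 1, bars of 1 SE) under PGN (blue) and under LA (red) for the 16 members whose effects differed between the stimuli. For 15 of them the PGN point lies left of the LA point, and EIF3L has them the other way round.

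Many mRNAs of cytosolic ribosomal proteins carry a TOP motif, a C at the start followed by a run of C and T through which mTOR and LARP1 control their translation and stability. The initiation factor genes were read at their RefSeq starts for the same letters, on the gene's own strand: a C followed by at least 4 bases that are each C or T. The windows printed run from 10 bases before the start to 15 bases from it, with the run in capitals. The 10 members with such a run are EIF3D, EIF3F, EIF3K, EIF3M, EIF2S3, EIF2S3B, EIF2A, EIF2D, EIF4A2 and EIF4B. The windows of 6 of them are printed as examples from eIF3, eIF2 and eIF4, followed by EIF4A1, EIF4E and EIF2S1, which have no such run and were picked as illustrations because they rose in LA+RVT against LA. Their places, in order, are chr22:36529152-36529176 on the minus strand, chr11:7987327-7987351, chr11:32583821-32583845, chrX:24054946-24054970, chr3:186783567-186783591 and chr12:53006446-53006470, all plus, then chr17:7572815-7572839 plus, chr4:98929119-98929143 minus and chr14:67360318-67360342 plus.
EIF3D: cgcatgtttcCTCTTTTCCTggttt
EIF3F: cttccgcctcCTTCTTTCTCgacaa
EIF3M: gcccagttccCTTTTCCggtcggcg
EIF2S3: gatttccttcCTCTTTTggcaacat
EIF4A2: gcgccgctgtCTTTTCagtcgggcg
EIF4B: tcatccgggtCTTTTgcgttctctt
EIF4A1: ggcactccgccctagtttctaagga
EIF4E: tggagcggttgtgcgatcagatcga
EIF2S1: gaggttccgcatgcgcggtggagtg
Such a start in any window was found for 5.14% of all 27305 gene symbols, for 10 of the 45 members with a window and for 48 of 69 ribosomal protein symbols (69.6%). A gene's RefSeq start may not be the one these cells use, and reads at starts were not analysed here.

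In LA+RVT against LA, 1 of the 9 tested members with a pyrimidine start rose, EIF3M, and none fell. Their median log2 fold change was 0.010, with a range from -0.069 to 0.19. Of the 32 tested members with another start, 13 rose and none fell, with a median of 0.16. EIF3L, which fell, and EIF2S2, EIF3A, EIF3CL and EIF3H, which rose, had no window and are in neither class. Ribosomal protein genes with a pyrimidine start had a median of -0.17, with 1 of 47 higher and 35 lower, and those with another start a median of -0.12, with none of 19 higher and 10 lower. Among all other tested genes with a pyrimidine start, 78 of 709 rose and 39 fell (median 0.030). Of those with another start, 1196 of 9770 rose and 465 fell (median 0.045). The 1 of 9 members that rose is near the share of other genes with a pyrimidine start, so this count is not a result about the members. In PGN+RVT against PGN none of the 9 members with a pyrimidine start was called (median -0.014), and of 31 with another start 1 rose and 2 fell (median -0.058). EIF3E, which also fell there, had no window. Among all other tested genes in that comparison, 80 of 695 with a pyrimidine start rose and 35 fell. With another start, 1116 of 9489 rose and 490 fell. As a share of all TPM, ribosomal proteins took 12.8%, 13.04% and 13.1% with LA+RVT and 14.3%, 14.8% and 14.7% with LA, and 15.1% ± 0.316 with PGN+RVT and 15.9% ± 0.147 with PGN. Mitochondrially encoded genes took 13.1% ± 0.171 with LA+RVT and 13.97% ± 0.286 with LA, and 10.7% ± 0.518 with PGN+RVT and 11.5% ± 0.215 with PGN (SD, n = 3 each).

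**Figure D5:**
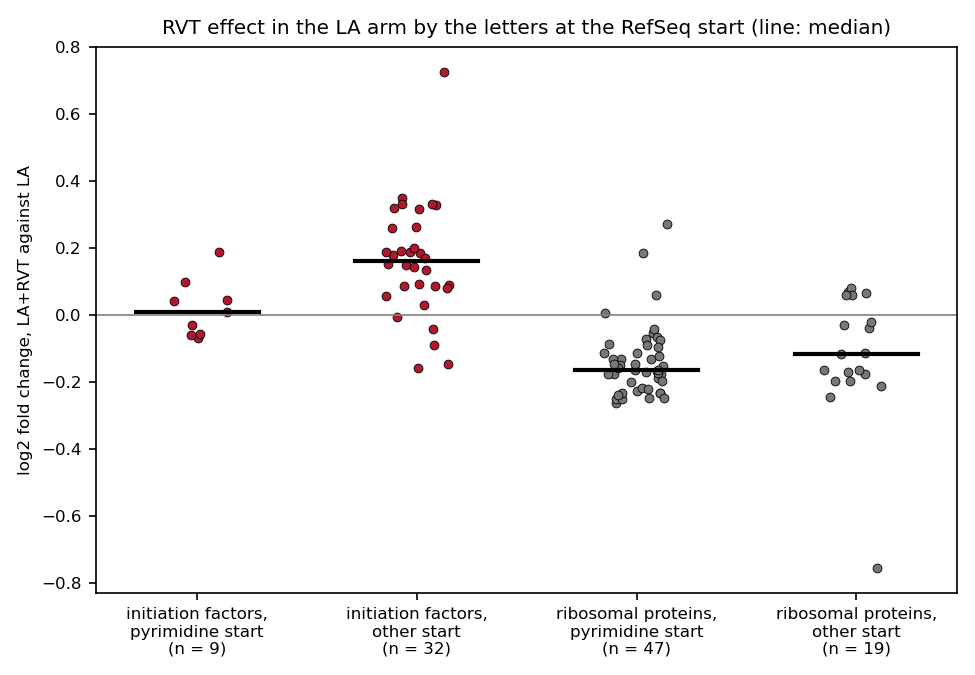
Log2 fold change in LA+RVT against LA for initiation factor genes (red) and cytosolic ribosomal protein genes (grey), split by whether the RefSeq start is a C followed by at least 4 pyrimidines, with the median as a line. Initiation factors with such a start have a median of 0.010 and those with another start 0.16. Both ribosomal protein medians lie below 0. Genes without a window, EIF3L among them, are not shown.

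The neighbours of the members in the pathway were read from lists chosen by function. The 4E-binding proteins, which sequester eIF4E, showed no call: EIF4EBP1 was at 153 ± 5.97 TPM with LA+RVT and 147 ± 2.87 TPM with LA, and at 148 ± 8.18 TPM with PGN+RVT and 149 ± 3.71 TPM with PGN. EIF4EBP2 was at 26.3 ± 1.25 TPM with LA+RVT and 26.5 ± 0.539 TPM with LA, and EIF4EBP3 was under the filter. The list named for elongation and termination split in the LA arm, with 3 of 11 genes higher and 3 lower (54.5% called, against 15.7% of all genes). Those higher were GSPT1, the release factor eRF3 (103 ± 1.75 TPM with LA+RVT and 83.3 ± 3.27 TPM with LA, adjusted p = 0.00408), and the ribosome recycling factor ABCE1 (88.5 ± 4.19 TPM with LA+RVT and 72.5 ± 1.93 TPM with LA, adjusted p = 0.00829). EEF1E1, which is in the list but shares only the symbol of the elongation factors, was also higher (43.0 ± 0.815 TPM with LA+RVT and 36.0 ± 0.621 TPM with LA, adjusted p = 0.00848). Lower were EEF1A1 and EEF1A2, which bring aminoacyl tRNA to the ribosome, and EEF1G of their exchange complex, at 2087 ± 30.9 TPM with LA+RVT and 2328 ± 25.1 TPM with LA (adjusted p = 0.00235). Under PGN, EEF1A1 (4958 ± 69.5 TPM with PGN+RVT and 5483 ± 7.11 TPM with PGN, adjusted p = 0.00733) and EEF1G (adjusted p = 0.0276) fell and none of the 11 rose. That is 18.2% called, near the 15.6% of all genes, so the count is not a result about the list. The EEF1G call was lost without PGN replicate 2 or any 1 of the PGN+RVT replicates (0.0782 to 0.120).

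Of 21 helpers of initiation with other names, 4 rose and 1 fell under LA (23.8% called, against 15.7% of all genes), and 1 rose and 2 fell under PGN (14.3%, near the 15.6% of all genes). LARP1, the protein that binds TOP mRNAs, had 80.7, 83.4 and 81.0 TPM with LA+RVT, against 63.4, 60.6 and 60.9 TPM with LA. These groups lay far apart, with a log2 fold change of 0.40 ± 0.035 (adjusted p = 9.85e-04). Under PGN it was at 89.0 ± 2.69 TPM with PGN+RVT and 89.3 ± 4.01 TPM with PGN, and the difference of the effects, -0.41 ± 0.059, was called (adjusted p = 0.00109). PPP1R15A (GADD34), the phosphatase subunit that reverses eIF2 alpha phosphorylation, had 56.5, 53.1 and 55.5 TPM with LA+RVT, against 46.5, 48.6 and 46.5 TPM with LA. In the other arm it had 37.0, 35.6 and 35.8 TPM with PGN+RVT, against 45.9, 48.3 and 43.8 TPM with PGN. It thus rose under LA (0.22 ± 0.042, adjusted p = 0.0167) and fell under PGN (-0.34 ± 0.056, adjusted p = 0.00907), with a difference of -0.56 ± 0.066 (adjusted p = 2.77e-04). The LA call was lost without replicate 1 or 3 of either group (0.0520 to 0.0609). The helicase DHX29 and DOHH, which completes the hypusine of eIF5A, also rose under LA, and the ribosomal scaffold RACK1 fell. The DHX29 call was lost without any 1 library but LA+RVT replicate 3 (0.0745 to 0.0939), and that of RACK1 without LA replicates 2 or 3 or LA+RVT replicate 2 (0.0543 to 0.0548). Under PGN, PAIP2 rose and PABPC1 fell, at 882 ± 9.01 TPM with PGN+RVT and 972 ± 13.4 TPM with PGN (adjusted p = 0.0184). Without any 1 library but PGN replicate 1 the PAIP2 call was lost (0.0844 to 0.116), and that of PABPC1 was lost without PGN replicate 2 or any 1 of the PGN+RVT replicates (0.0543 to 0.0683).

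Among 18 tested genes of mTOR and MNK control, 1 rose and 2 fell under LA, and 1 rose and 1 fell under PGN. These shares, 16.7% under LA and 11.1% under PGN, are near or below the 15.7% and 15.6% called among all genes, so the count is not a result about the list. MTOR, the kinase itself, was at 47.4 ± 1.16 TPM with LA+RVT and 39.99 ± 1.35 TPM with LA (log2 fold change 0.24 ± 0.043, adjusted p = 0.0134), a call lost without LA replicate 2 or 3 (0.0502 and 0.0503). DDIT4 (REDD1), a stress-induced inhibitor of mTOR complex 1, had 264, 276 and 274 TPM with PGN+RVT, against 375, 401 and 391 TPM with PGN. No library overlapped, and the log2 fold change was -0.52 ± 0.040 (adjusted p = 4.94e-04). Under LA it was at 156 ± 5.37 TPM with LA+RVT and 182 ± 13.4 TPM with LA (-0.22 ± 0.056, adjusted p = 0.0432), which was lost without any 1 library but LA replicate 1 (0.0696 to 0.119).

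The ATF4 branch is the set of genes that cells switch on when eIF2 alpha is phosphorylated. Under LA 2 of 10 rose and 2 fell, and 4 were called under PGN, 4 of 10 in each arm, against 15.7% of all genes under LA and 15.6% under PGN. DDIT4 and PPP1R15A, called in both arms, are also in the lists of mTOR control and of helpers. Their calls are thus counted in both places. ATF3, a stress transcription factor, had 11.9, 12.7 and 13.8 TPM with LA+RVT, against 21.8, 20.8 and 21.7 TPM with LA (log2 fold change -0.70 ± 0.068, adjusted p = 0.00136). ASNS, asparagine synthetase, went the other way, at 90.7 ± 3.68 TPM with LA+RVT and 71.5 ± 2.29 TPM with LA (0.34 ± 0.043, adjusted p = 0.00378). Under PGN none rose and 4 fell: DDIT4 and PPP1R15A, ATF4 itself, at 364 ± 14.96 TPM with PGN+RVT and 416 ± 12.1 TPM with PGN (adjusted p = 0.0250), and ATF3, at 9.79 ± 0.315 TPM with PGN+RVT and 13.4 ± 1.95 TPM with PGN (adjusted p = 0.0386). The ATF4 call was lost without PGN replicate 2 or PGN+RVT replicates 1 or 3 (0.0817 to 0.0973), and the ATF3 call under PGN without any 1 library but PGN replicate 3 (0.0520 to 0.116). Phosphorylation of eIF2 alpha, protein levels and translation rates were not measured in these libraries.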

How the data were processed

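RNA of 12 SZ95 libraries was measured, and each library's title gave its group and replicate number. Per the file headers, the values deposited by the authors are TPM in 2 tables, 1 per stimulus, with a column per library. HISAT2 2.1.0, RSEM 1.3.1, DESeq2 1.24.0 and GRCh38.p13 appear in the submitters' processing notes with no role or order, and the sources used here give no annotation release. Of 60630 identifiers in both tables, 1432 carry different names. TPM hold shares and no depth, so no interval from counts is given. The p-values rest on the spread between these libraries only.

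Tests were made with limma 3.58.1 in R 4.3.3 on log2(TPM + 1), which understates fold changes of low genes, with a trended variance, genes averaging at least 1 TPM, two-sided p, and Benjamini-Hochberg adjustment over all genes tested. Each arm was fitted on its own 6 libraries, and the difference on all 12. The steps were tested on simulated data. Alternatives were library medians equalised, totals without ribosomal protein and mitochondrial genes, a pseudocount of 0.1, no filter, a mean of at least 5 TPM, all 12 libraries in one fit, a replicate block and each library left out. Summing EIF3C and EIF3CL was added after seeing the data.

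The members, the roles and the 5 other lists were chosen with earlier results of these data known. Members were joined by gene identifier. Named were called members, a set of core members, the most abundant member of each complex, and up to 4 genes with the smallest p per other list and arm. EEF1A1 and EEF1A2 under LA and DOHH were named after their values were seen, to complete a count. Members with close paralogues or many pseudogenes can share reads, and the effect of this was not tested. Positions are from GENCODE 29 on GRCh38, and promoter sequences from RefSeq on GRCh38.p14, matched by symbol for 45 of 53 members.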

Additional observations from a re-analysis of the deposited data

Results flagged for a closer look

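For 16 members the effect of RVT under PGN differed from its effect under LA when the difference itself was tested over the 12 libraries, and each value is the PGN effect minus the LA effect on the log2 scale. Among eIF3 genes the differences were -0.48 for EIF3J, -0.34 for EIF3B, -0.25 for EIF3E, -0.24 for EIF3H, -0.20 for EIF3A and 0.13 for EIF3L. In the eIF4 group they were -0.44 for EIF4A3, -0.34 for EIF4A1, -0.31 for EIF4G2 and -0.21 for EIF4G1. The late factors showed -0.31 for EIF5A, -0.30 for EIF5B and -0.26 for EIF6. For the eIF2 subunits EIF2S1 and EIF2S2 they were -0.37 and -0.18, and for EIF1AX -0.53. The adjusted p ran from 1.82e-04 for EIF4A1 to 0.0459 for EIF3E.

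In 7 of these the call was lost with a library left out. EIF3E, EIF2S2, EIF2S1 and EIF3L were lost without PGN replicate 2 or without PGN+RVT replicates 1 or 2, and also without at least 5 of the 6 libraries of the LA arm, with adjusted p up to 0.101, 0.0790, 0.0763 and 0.0935, and EIF3L was also lost without PGN replicate 1 or PGN+RVT replicate 3. EIF4G2 was lost without replicates 1 or 2 of PGN or of PGN+RVT, LA replicates 1 or 2 or LA+RVT replicates 2 or 3 (0.0599 to 0.0927). EIF5B was lost without any library of the LA arm, PGN replicates 1 or 2 or PGN+RVT replicate 2 (0.0530 to 0.0727), and EIF3A without PGN+RVT replicate 2, LA replicates 2 or 3 or LA+RVT replicates 1 or 2 (0.0535 to 0.0654).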

How the results depend on the processing

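Direction was steady for the called members and the number of calls was not. In LA+RVT against LA, 2426 genes were called, 1610 with no filter, 1502 with the replicate block and 1428 to 1690 with a library left out. Of the members 19 were called there, 12 with no filter, 12 with the replicate block and 9 to 13 with a library left out. Those higher numbered 18, and 9 to 13 with a library left out. Those lower numbered 1, but 4 with library medians equalised, 4 with totals without ribosomal protein and mitochondrial genes, 0 with no filter or the replicate block, and 0 to 1 with a library left out. In PGN+RVT against PGN, 2277 genes were called, 1384 with no filter and 1095 to 1861 with a library left out. The 4 members called became 8 with medians equalised, 1 with no filter and 0 to 7 with a library left out. The 1 higher became 0 with medians equalised, 2 with all 12 libraries in one fit and 0 to 3 with a library left out, and the 3 lower became 8, 0 with no filter, and 0 to 4. For the difference, 16 members became 9 with no filter and 10 to 17 with a library left out. The 1 above 0 became 0 with medians equalised, no filter or the replicate block and 0 to 1 with a library left out, and the 15 below became 9 with no filter and 9 to 16 with a library left out. Fewer libraries or more low genes are in these fits by construction, and the cause of the other shifts was not tested.

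Deviations of same-numbered libraries correlated at -0.070, -0.0068 and -0.029 in the LA arm and at 0.032, 0.041 and 0.0081 in the PGN arm. Same-numbered libraries thus shared little deviation, which cannot tell whether the samples were paired in the experiment. With the replicate block, 12 members were called higher and 0 lower under LA, 1 and 2 under PGN, and 0 and 11 in the difference.

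Values that changed sign were all of members or neighbours not called. With a library left out, those under LA ran from -0.028 to 0.0041 for EIF3E, -0.074 to 0.0048 for EIF2AK3 and -0.046 to 0.020 for EIF4EBP2. Under PGN they ran from -0.17 to 0.017 for EIF2AK2, -0.047 to 0.27 for EIF2AK3, -0.097 to 0.018 for EIF2S1, -0.057 to 0.00074 for EIF3A, -0.060 to 0.053 for EIF3M, -0.050 to 0.029 for EIF4EBP1 and -0.021 to 0.26 for EIF4ENIF1. In the difference they ran from -0.010 to 0.10 for EIF2B4, -0.0050 to 0.31 for EIF2AK3 and -0.031 to 0.021 for EIF2B1. Under PGN, EIF3L was -0.035 with library medians equalised and -0.0070 with totals without ribosomal protein and mitochondrial genes, EIF4G1 was -0.0068 with medians equalised, and EIF3CL summed with EIF3C was -0.017. The difference for EIF2B1 was 0.0085 with totals without ribosomal protein and mitochondrial genes.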
